A study of Homo sapiens with 6 samples.

Results

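The genes described here are 55 components of bone morphogenetic protein (BMP) and transforming growth factor beta (TGF-beta) signalling, measured by RNA sequencing in J82, a human bladder cancer cell line. They were chosen by symbol, as a list of ligands, receptors, SMAD proteins, antagonists and feedback targets that left out the ID genes, and all 55 were found among the 57820 genes of the count table. The table compared 3 control libraries with 3 libraries from J82 cells in which FOXC1, a forkhead transcription factor, was knocked out (FOXC1 KO). The knockout used CRISPR/Cas9 delivered by the lentiCRISPRv2 vector, and the controls carried the vector. Cells of both groups grew in DMEM with 10% FBS. The methods gave puromycin selection and a check by Western blot, and they spoke of knockout clones without saying how many clones lay behind the libraries. Nothing said that the libraries of a group came from separate cultures, so the p-values measure the spread between these libraries, which may be technical.

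BMPs, TGF-betas and activins are secreted dimers that bind pairs of type I and type II receptor kinases. BMP receptors phosphorylate SMAD1, SMAD5 and SMAD9, whereas TGF-beta and activin receptors phosphorylate SMAD2 and SMAD3, and both sets of SMADs act in the nucleus together with SMAD4. The inhibitory SMADs, SMAD6 and SMAD7, and the SMURF ubiquitin ligases restrain the receptors, while secreted proteins such as noggin and follistatin bind the ligands outside the cell.

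The libraries held between 18408134 and 25350908 counts in total. Values are CPM, the read counts of a gene scaled to a common library total with normalized library sizes, each group mean is given ± SD with n = 3, and fold changes are FOXC1 KO over control from edgeR. A gene was called when its Benjamini-Hochberg adjusted p in edgeR's quasi-likelihood test was under 0.05 over 15647 tested genes and its fold change was over 1.3. The targeted gene was not lower at the RNA level. FOXC1 (GRCh37 chr6:1610150-1614132, plus strand) had 413, 412 and 490 counts in the control and 443, 560 and 497 in the KO libraries, or 18.2 ± 1.21 and 22.5 ± 1.50 CPM. Every KO library stood above every control library, with a log2 fold change of 0.30 (SE 0.091, edgeR adjusted p = 0.0127), which was 1.23-fold and under the threshold. Without control replicate 2 the adjusted p was 0.0827, and without KO replicate 1 it was 0.0784. The FOXC1 transcript therefore gave no check of the labels, and every direction below is that of the libraries labelled KO.

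Of the 55 genes, 46 were expressed above the filter and tested. In the FOXC1 KO libraries 6 of them (13.0%) were lower, 9 (19.6%) were higher and 31 were not called. Over all tested genes 8.39% were called lower and 7.57% higher, so 32.6% of the pathway genes were called against a background of 16.0%. Their median log2 fold change of 0.035 was near that of all tested genes (-0.00084), with 25 genes above 0 and 21 below. The control and KO ranges were apart for 30 of the 46 genes (41.3% of all tested genes had such ranges), and all 15 called genes were among those 30. INHBB and INHBE passed the filter only through their KO libraries, and BMPR1B only through its control libraries. In bulk RNA, fewer cells that express a gene and less RNA per cell cannot be told apart.

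**Figure D1:**
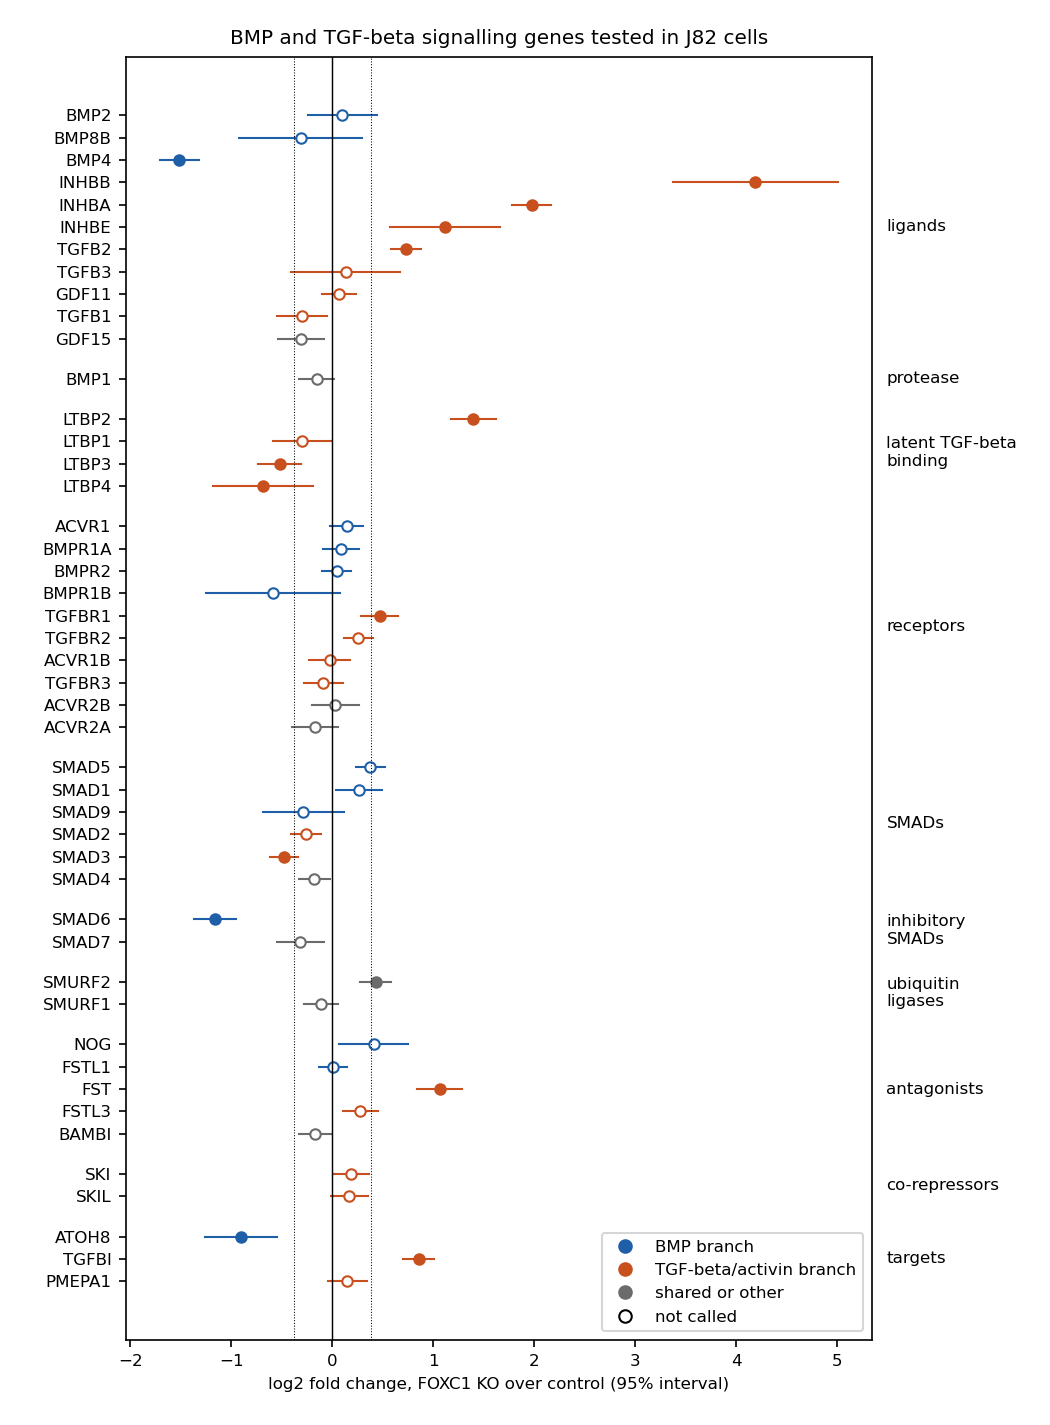
Log2 fold change (FOXC1 KO over control, x axis) of the 46 tested pathway genes in rows grouped by role, with bars for the 95% interval, colour for the branch, filled points for called genes and dotted lines at the 1.3-fold threshold. The ligands span the widest range, from -1.52 for BMP4 to 4.19 for INHBB, while 9 of the 10 tested receptors are not called.

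The calls among the ligands went in opposite directions in the branches. BMP4, the main BMP ligand transcript of these cells, was lower in the FOXC1 KO libraries, while 4 ligands of the TGF-beta and activin branch, INHBA, INHBB, INHBE and TGFB2, were higher. The BMP side rests on this 1 call among 3 tested ligands. INHBB and INHBE passed the filter only through their KO libraries, so the filter favoured a higher call for them. BMP4 (chr14:54416454-54425479, minus strand) measured 29.4, 30.7 and 32.9 CPM in the control libraries and 11.4, 10.0 and 11.2 CPM in the KO libraries. The lowest control library stood far above the highest KO library. Its mean went from 31.0 ± 1.79 to 10.9 ± 0.752 CPM, a 2.86-fold lower level with a log2 fold change of -1.52 (SE 0.094, edgeR adjusted p = 2.48e-13).

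INHBA encodes the beta A subunit whose dimer is activin A. INHBA (chr7:41706766-41745432, minus strand) measured 9.37, 11.6 and 10.5 CPM in the control and 40.3, 39.2 and 44.2 CPM in the KO libraries. The groups were well apart, at 10.5 ± 1.10 and 41.2 ± 2.63 CPM, or 3.92-fold higher in KO (log2 fold change 1.97, SE 0.095, edgeR adjusted p = 7.44e-16). The antisense gene INHBA-AS1 was called higher too, from 0.179 to 0.527 CPM, and the strand setting of the counting was not given, so reads of the pair may not have been told apart.

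INHBB, which encodes the beta B subunit of activin B, was close to silent in the control libraries. It had 3, 2 and 1 counts there against 108 in the KO libraries together, which is 0.134, 0.0820 and 0.0393 CPM against 1.36, 1.79 and 1.62 CPM. The ratio of the summed counts, scaled for library size, was 19.4, with a 95% exact interval of 8.62 to 54.0 that covers counting error only. INHBB (chr2:121103712-121109379, plus strand) had an edgeR adjusted p of 2.19e-09, and its fitted log2 fold change of 4.19 depends on the prior count.

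INHBE, the beta E subunit gene best known from liver, was also a low transcript. INHBE (chr12:57846106-57853063, plus strand) measured 0.937, 0.410 and 0.866 CPM in the control and 1.85, 1.47 and 1.53 CPM in the KO libraries. The groups did not overlap, and the log2 fold change was 1.12 (SE 0.27, edgeR adjusted p = 0.00187).

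TGFB2 was the most abundant of the TGF-beta ligand transcripts per length. TGFB2 (chr1:218518678-218617961, plus strand) measured 87.2, 92.8 and 95.9 CPM in the control and 162, 142 and 152 CPM in the KO libraries, again without overlap. Its mean went from 92.0 ± 4.39 to 152 ± 9.78 CPM, 1.65-fold higher in KO (log2 fold change 0.72, SE 0.073, edgeR adjusted p = 5.50e-09). Its antisense gene TGFB2-AS1 was also called higher, from 3.73 to 5.97 CPM.

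The other ligands were not called. TGFB1 measured 8.21, 6.85 and 7.16 CPM in the control and 5.93, 6.31 and 5.70 CPM in the KO libraries, with a log2 fold change of -0.30 and an edgeR adjusted p of 0.0578. These groups did not overlap, and the value lay on the opposite side of 0 from TGFB2. TGFB3, the remaining TGF-beta, had a log2 fold change of 0.13 (adjusted p = 0.752 in edgeR) at under 1.1 CPM in every library. BMP2, a further BMP ligand, measured 2.41, 2.38 and 2.44 CPM against 2.67, 2.46 and 2.64 CPM, a log2 fold change of 0.10 with a 95% interval of -0.24 to 0.44. GDF15, a stress-responsive ligand, had an edgeR adjusted p of 0.0371, at a log2 fold change of -0.31 that was under the fold threshold, and DESeq2 gave an adjusted p of 0.118. GDF11, a ligand of the activin class, had a log2 fold change of 0.06, and BMP1, a protease that processes matrix proteins and frees ligands, one of -0.16. BMP8B, a near-identical copy of BMP8A that also overlaps PPIE, gave an uncertain value of -0.32.

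The 9 genes below the filter were all of the BMP branch: the ligands BMP5, BMP6, BMP7, BMP8A, GDF5 and GDF6, the receptor ACVRL1, and the antagonists GREM1 and CHRD. None reached more than 6 counts in a library, and the highest level was 0.272 CPM. BMP7 had 0 counts in all 6 libraries, and a count of 0 allows up to 3 counts, or 0.118 to 0.163 CPM depending on the library.

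Per kilobase of transcript, BMP4 and TGFB2 stood at 16.0 and 15.7 CPM per kb in the control libraries and at 5.63 and 25.9 CPM per kb in the KO libraries. INHBA went from 1.74 to 6.82 CPM per kb, and so passed GDF11, at 4.63 and 4.84 CPM per kb, and BMP4. The lengths came from a later annotation than the counts, so such rankings and sums across genes depend on it. The tested and untested BMP ligands summed to 17.0 ± 0.909 CPM per kb in control and 6.65 ± 0.404 CPM per kb in KO. BMP4 made up 94.4% and 84.6% of these sums. The TGF-beta and activin ligands summed to 25.3 ± 0.293 and 41.2 ± 1.67 CPM per kb, and their ratio to the BMP ligands went from 1.49 ± 0.0624 to 6.20 ± 0.143. Each KO library lay beyond every control library, and the two-sided exact permutation p of 0.1 for that ratio is the smallest that 3 against 3 libraries allow. BMP4 and TGFB2, the largest parts of the sums, already had groups apart in opposite directions, so that p adds no support to their calls. TGFB2 took 84.3% ± 1.76 of the summed TGFB1, TGFB2 and TGFB3 level in control and 91.4% ± 0.671 in KO.

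**Figure D2:**
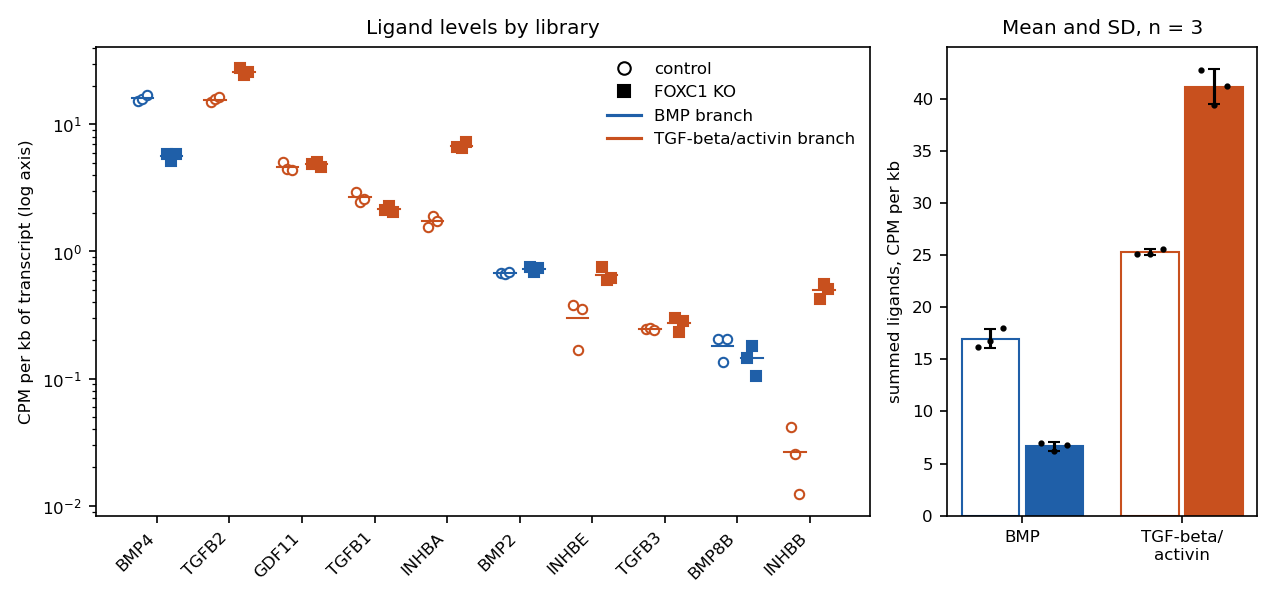
Left, the level of each tested BMP, TGF-beta and activin ligand in CPM per kb of transcript (log axis) in every library of both groups; right, the summed BMP ligands and the summed TGF-beta and activin ligands as mean ± SD bars (n = 3, axis from 0). The BMP sum is 17.0 CPM per kb in control and 6.65 in KO, and the TGF-beta and activin sum is 25.3 and 41.2 CPM per kb, with no library of a group in the range of the other.

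The promoters of the 4 called genes with the largest absolute log2 fold changes are shown, and BMP4 alone among them is of the BMP branch. They are the 250 bases before the transcript start in RefSeq's GRCh38.p14 annotation, 5′ to 3′ along the gene. Capitals mark the letters of GGCGCC, a BMP-responsive element, of CAGAC, a SMAD element, or of TAAACA, a forkhead core, each searched on both strands. The motifs do not overlap each other in these windows. INHBB lies at chr2:120345886-120346135 (plus strand), INHBA at chr7:41703091-41703340, BMP4 at chr14:53955051-53955300 and LTBP2 at chr14:74612238-74612487 (minus strand for these last ones). BMP4 had 3 promoters, and the most upstream is printed.
INHBB: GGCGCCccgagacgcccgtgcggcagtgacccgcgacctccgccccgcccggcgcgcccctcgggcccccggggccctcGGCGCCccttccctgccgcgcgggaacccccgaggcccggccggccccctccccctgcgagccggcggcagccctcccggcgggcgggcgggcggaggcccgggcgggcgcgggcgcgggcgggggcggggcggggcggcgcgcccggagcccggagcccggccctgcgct
INHBA: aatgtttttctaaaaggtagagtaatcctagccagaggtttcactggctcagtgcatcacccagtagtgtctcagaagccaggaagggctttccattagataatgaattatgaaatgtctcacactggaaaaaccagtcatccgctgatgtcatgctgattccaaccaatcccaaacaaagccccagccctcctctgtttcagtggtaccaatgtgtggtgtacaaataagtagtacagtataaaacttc
BMP4: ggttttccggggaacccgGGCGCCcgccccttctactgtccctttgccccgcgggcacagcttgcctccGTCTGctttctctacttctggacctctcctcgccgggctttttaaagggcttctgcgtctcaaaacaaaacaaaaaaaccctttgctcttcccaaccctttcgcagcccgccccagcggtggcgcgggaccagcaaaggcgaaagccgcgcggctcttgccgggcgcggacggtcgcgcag
LTBP2: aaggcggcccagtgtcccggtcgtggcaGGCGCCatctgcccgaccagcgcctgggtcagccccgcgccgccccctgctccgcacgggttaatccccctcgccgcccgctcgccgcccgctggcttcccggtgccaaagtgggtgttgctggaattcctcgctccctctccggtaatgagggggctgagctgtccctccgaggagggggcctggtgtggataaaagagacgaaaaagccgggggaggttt
The INHBB window held GGCGCC at 2 places and the LTBP2 window at 1, the BMP4 window held GGCGCC and GTCTG, the reverse complement of CAGAC, and none of the letters searched were in the INHBA window. INHBB was the most GC-rich, with 89.6% G and C against 42.8% for INHBA, 63.6% for BMP4 and 68.8% for LTBP2. The median over all promoters was 58%. RefSeq promoters matched 47 of the 55 genes, with 82 windows. GGCGCC was in 26.8% of those windows and in 24.1% of the 29 windows of called genes, against 16.4% of all 35116 promoters. CAGAC was in 37.8%, 34.5% and 38.0% of the same sets, and TAAACA in 11.0%, 13.8% and 11.0%. These matches describe letters, not binding, and the shares were not matched for the GC content of the promoters.

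Latent TGF-beta binding proteins (LTBPs) hold secreted TGF-beta in the extracellular matrix until it is released. Of the 4 members 3 were called. LTBP2, a matrix member of the family, was called higher, while LTBP3 and LTBP4, which bind latent TGF-beta, were called lower. LTBP2 (chr14:74964886-75079081, minus strand) measured 6.51, 5.78 and 5.78 CPM in the control and 15.1, 17.0 and 15.3 CPM in the KO libraries. No KO library came down to the control range, and the log2 fold change was 1.39 (SE 0.11, edgeR adjusted p = 3.25e-11). LTBP3 (chr11:65306030-65326401, minus strand) measured 22.4, 17.6 and 20.0 CPM in the control and 14.0, 15.5 and 12.2 CPM in the KO libraries. Its groups did not overlap either, at a log2 fold change of -0.52 (SE 0.11, edgeR adjusted p = 0.000324). LTBP4 (chr19:41098789-41135723, plus strand) was a low transcript, at 1.70, 1.27 and 1.57 CPM against 0.707, 1.07 and 0.978 CPM. Its log2 fold change of -0.69 (SE 0.24, edgeR adjusted p = 0.0315) was the weakest call: DESeq2 gave an adjusted p of 0.172, and edgeR gave 0.0852 without control replicate 1, 0.0903 without control replicate 3, 0.115 without KO replicate 1 and 0.0607 without KO replicate 3. LTBP1, the founding member of the family, measured 5.09, 4.39 and 4.33 CPM in the control and 3.97, 3.69 and 3.53 CPM in the KO libraries, without overlap, but its edgeR adjusted p was 0.106.

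**Figure D3:**
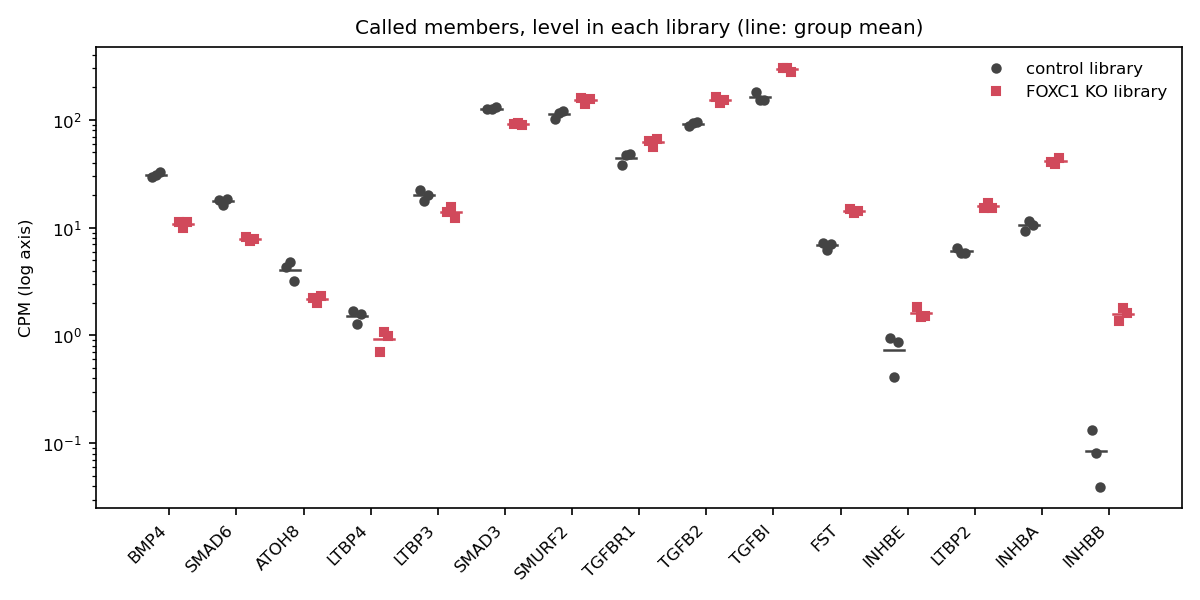
CPM (log axis) of the 15 called pathway genes in each control and FOXC1 KO library, as points, with a line for the group mean. BMP4, SMAD6, SMAD3, ATOH8, LTBP3 and LTBP4 are lower in all KO libraries and the other 9 genes higher in all of them.

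Of the 10 tested receptors 1 was called, TGFBR1, the type I TGF-beta receptor, a share near the 16.0% of all tested genes. TGFBR1 (chr9:101866320-101916474, plus strand) measured 38.1, 47.6 and 48.4 CPM in the control and 63.8, 55.6 and 66.6 CPM in the KO libraries. All KO libraries were above all control libraries, with a log2 fold change of 0.47 (SE 0.089, edgeR adjusted p = 0.000165). The lowest value was control replicate 1, and without it the log2 fold change was 0.36, under the fold threshold. TGFBR2, the type II TGF-beta receptor, measured 79.5, 79.9 and 80.7 CPM in the control and 101, 90.3 and 95.7 CPM in the KO libraries. It was higher in all KO libraries at a log2 fold change of 0.26 (edgeR adjusted p = 0.00690), which was under the fold threshold.

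The BMP receptors gave no call. BMPR2, the type II BMP receptor, stood at 120 ± 5.54 and 124 ± 4.23 CPM, with a log2 fold change of 0.04 and a 95% interval of -0.10 to 0.18. BMPR1A and ACVR1, type I BMP receptors, had intervals of -0.10 to 0.26 and of -0.02 to 0.31. All 3 intervals lie within the 1.3-fold threshold of 0.38 on the log2 scale. BMPR1B, a further type I receptor, had a log2 fold change of -0.59 (edgeR adjusted p = 0.182), and it would be called without KO replicate 1, at -1.03 (adjusted p = 0.0336). The activin receptors ACVR1B, ACVR2A and ACVR2B had log2 fold changes of -0.03, -0.17 and 0.03, and TGFBR3, the co-receptor betaglycan, one of -0.09.

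Among the SMADs that carry the signal, SMAD3, the effector of the TGF-beta and activin branch, was called lower. SMAD3 (chr15:67356101-67487511, plus strand) measured 126, 125 and 130 CPM in the control and 92.3, 92.9 and 88.7 CPM in the KO libraries. The groups were tight and apart, at 127 ± 2.63 and 91.3 ± 2.25 CPM, with a log2 fold change of -0.48 (SE 0.069, edgeR adjusted p = 3.69e-06). Its partner SMAD2 measured 130, 142 and 139 CPM against 120, 107 and 117 CPM. SMAD2 was lower in every KO library (log2 fold change -0.26, edgeR adjusted p = 0.00612) but under the fold threshold.

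SMAD5, an effector of the BMP branch, measured 80.4, 84.9 and 84.6 CPM in the control and 106, 104 and 114 CPM in the KO libraries. Its log2 fold change of 0.38 (SE 0.071, edgeR adjusted p = 0.000168) was 1.297-fold, just under the threshold of 1.3, so it was not called, and DESeq2 called it. SMAD1, a second BMP effector, measured 7.81, 7.99 and 7.91 CPM against 10.4, 9.09 and 9.02 CPM, with a log2 fold change of 0.26 and an edgeR adjusted p of 0.0733. SMAD9, the other SMAD of the BMP effectors, had a value of -0.29 (adjusted p = 0.295 in edgeR) and the common partner SMAD4 one of -0.18 (adjusted p = 0.0714 in edgeR). SMAD2, SMAD3, SMAD4 and SMAD9 so had negative fold changes and SMAD1 and SMAD5 positive ones, and of these edgeR called SMAD3 alone.

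SMAD6, the inhibitory SMAD that acts mainly on BMP receptors and is itself a BMP target, showed one of the larger falls. SMAD6 (chr15:66994574-67075187, plus strand) measured 17.9, 16.2 and 18.5 CPM in the control and 8.16, 7.50 and 7.91 CPM in the KO libraries. These groups were far apart, 2.24-fold lower in KO at a log2 fold change of -1.16 (SE 0.10, edgeR adjusted p = 5.02e-10). SMAD7, the general inhibitory SMAD, measured 8.66, 8.24 and 8.58 CPM against 6.85, 6.43 and 7.19 CPM. It was lower in every KO library, at a log2 fold change of -0.32 under the fold threshold (edgeR adjusted p = 0.0340, DESeq2 adjusted p 0.131). The ratio of SMAD6 to SMAD7 per length went from 1.80 ± 0.0816 to 1.01 ± 0.0406, with each KO library under every control library (two-sided exact permutation p = 0.1, the smallest possible here).

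SMURF2, a ubiquitin ligase that marks receptors and SMADs for removal, was called higher. SMURF2 (chr17:62538400-62658425, minus strand) measured 102, 117 and 120 CPM in the control and 160, 141 and 155 CPM in the KO libraries, a log2 fold change of 0.43 (SE 0.075, edgeR adjusted p = 6.26e-05). Control replicate 1 was again the lowest, and without it the log2 fold change was 0.35, under the fold threshold. SMURF2 overlaps CEP95, which moved the other way at -0.29 and was not called. SMURF1, its close relative, had a log2 fold change of -0.11.

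Of the secreted antagonists, follistatin (FST), which binds activins, was called higher. FST (chr5:52776456-52782964, plus strand) measured 7.23, 6.23 and 7.04 CPM in the control and 14.8, 13.6 and 14.4 CPM in the KO libraries. Its groups did not overlap, 2.09-fold apart (log2 fold change 1.06, SE 0.11, edgeR adjusted p = 6.10e-09). FSTL3, a follistatin relative that also binds activins, was 29.5, 25.9 and 26.4 CPM against 31.6, 35.2 and 32.3 CPM, with a log2 fold change of 0.28 under the fold threshold (edgeR adjusted p = 0.0136). The ratio of INHBA to FST per length went from 0.589 ± 0.108 to 1.10 ± 0.0649 (two-sided exact permutation p = 0.1, the smallest possible here), and all KO libraries had the higher ratio. NOG, which encodes the BMP antagonist noggin, measured 2.59, 2.09 and 2.79 CPM in the control and 3.37, 3.69 and 2.85 CPM in the KO libraries. It had a log2 fold change of 0.41 with an edgeR adjusted p of 0.0685, and it would be called without KO replicate 3 (0.50, adjusted p = 0.0481). The ratio of BMP4 to NOG per length went from 12.5 ± 1.79 to 3.31 ± 0.610. FSTL1, an abundant secreted glycoprotein, had a log2 fold change of 0.01 with a 95% interval of -0.13 to 0.15. BAMBI, a pseudoreceptor that damps TGF-beta signalling, measured 49.4, 44.6 and 45.5 CPM against 43.0, 41.3 and 39.7 CPM, a log2 fold change of -0.17 with an edgeR adjusted p of 0.103.

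Of the 3 targets in the list, ATOH8 and TGFBI were called. ATOH8, a helix-loop-helix factor induced by BMP signalling, was called lower. ATOH8 (chr2:85978467-86018506, plus strand) measured 4.28, 4.80 and 3.19 CPM in the control and 2.23, 1.98 and 2.34 CPM in the KO libraries. Even the lowest control library was above all KO libraries, with a log2 fold change of -0.90 (SE 0.17, edgeR adjusted p = 0.000185). TGFBI, a matrix protein named for its induction by TGF-beta, was called higher. TGFBI (chr5:135364677-135399507, plus strand) measured 182, 151 and 153 CPM in the control and 303, 301 and 277 CPM in the KO libraries. Its groups were well apart, at a log2 fold change of 0.86 (SE 0.076, edgeR adjusted p = 4.76e-10). PMEPA1, a TGF-beta feedback inhibitor, overlapped between groups (log2 fold change 0.15, edgeR adjusted p = 0.250). The co-repressors SKI and SKIL, which bind SMADs, had log2 fold changes of 0.19 and 0.17.

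By branch, 14 of the 23 BMP genes were tested, of which 3 (BMP4, SMAD6 and ATOH8) were called lower and 0 higher by edgeR, with a median log2 fold change of 0.024. In edgeR, SMAD5 was called higher in 4 of the 6 fits that left out 1 library and at equal depth, and NOG at equal depth (0.52, adjusted p = 0.0272) and without KO replicate 3. SMAD1, SMAD5 and NOG were higher at an unadjusted p under 0.05, and DESeq2 called 1 of the 14 higher, SMAD5, and 3 lower. Of the 23 TGF-beta and activin genes, all were tested, with 8 called higher and 3 lower (SMAD3, LTBP3 and LTBP4) and a median of 0.17. The 8 include INHBB and INHBE, which passed the filter only through their KO libraries. In edgeR 21.4% of the tested BMP genes were called, near the 16.0% of all tested genes (8.39% lower and 7.57% higher). The share of the TGF-beta and activin genes was 47.8%. The 9 genes assigned to neither branch or to both had 1 call, SMURF2, and a median of -0.17. Control and KO ranges were apart in 8 of the 14 BMP genes and 16 of the 23 TGF-beta and activin genes, against 41.3% of all tested genes. DESeq2 called 15 of the 46 genes in all, against a background of 11.9% of 17225 genes (5.78% called lower and 6.07% higher). It lost LTBP4 and gained SMAD5 relative to edgeR.

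Outside the 55 genes, of 72 listed other ligands, receptors, antagonists, activators and regulators, 42 were tested, 6 were called higher and 2 lower, with a median log2 fold change of 0.053. The share called, 8 of 42, was near the 16.0% of all tested genes. CHRDL1, a BMP antagonist, was among the lower genes and went from 60.5 ± 2.31 to 29.3 ± 1.19 CPM (log2 fold change -1.05, edgeR adjusted p = 1.44e-11). RGMB, a BMP co-receptor, was higher at 0.75, and so were ACVR1C (1.39), TWSG1 (0.49), THBS1 (0.49), ITGB8 (0.48) and FBN1 (0.39), all log2 fold changes. ACVR1C was a low transcript, with 7, 15 and 17 counts in the control and 16, 38 and 42 in the KO libraries. Its control replicate 1, at 0.312 CPM, was under the filter of 0.4188 CPM, so the filter favoured a higher call, as for INHBE. THBS1 and ITGB8 encode proteins that free TGF-beta from its latent form. None of the 21 tested SMAD regulators was called by edgeR or DESeq2, although 7 were higher and 2 lower at an unadjusted p under 0.05, and 6 had an edgeR adjusted p under 0.05 below the fold threshold.

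Downstream targets were read from separate lists for each branch. Both lists were chosen with earlier results of these data known, so their shares beside those of all genes are descriptions and no test. Of 23 tested TGF-beta target genes 13 were called higher and 1 lower, with a median log2 fold change of 0.61, against 7.57% higher and 8.39% lower among all tested genes. TAGLN, an actin-binding protein of smooth muscle, went from 11.1 to 74.7 CPM (log2 fold change 2.75, edgeR adjusted p = 1.38e-19). IL11, a cytokine, went from 4.75 to 18.9 CPM, COL1A1, a collagen chain, from 2.68 to 12.3 CPM, CTGF, a matricellular factor, from 63.9 to 132 CPM, and VEGFA, a vascular growth factor, from 95.6 to 192 CPM. The more abundant collagen chains COL1A2 and COL3A1, listed as fibroblast markers and not as targets, were called lower. COL1A2 went from 105 to 41.4 CPM (log2 fold change -1.34) and COL3A1 from 348 to 154 CPM (-1.18). KLF10, chosen for naming after its value was seen, was the lower gene, at -0.46. Of 9 tested BMP targets other than the ID genes, TBX3 (133 to 96.6 CPM, log2 fold change -0.47) and GATA3 (35.3 to 26.3 CPM, -0.42) were called lower by edgeR and DESeq2 and 0 higher by either, with a median of -0.12, and 1 was higher at an unadjusted p under 0.05 (RUNX2). The lower share, 22.2%, stood beside 8.39% of all tested genes in edgeR. GATA3 is also a urothelial marker, and 6 of the 7 tested urothelial markers were called lower. JUNB was on both target lists, and many of the TGF-beta targets also respond to other signals.

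**Figure D4:**
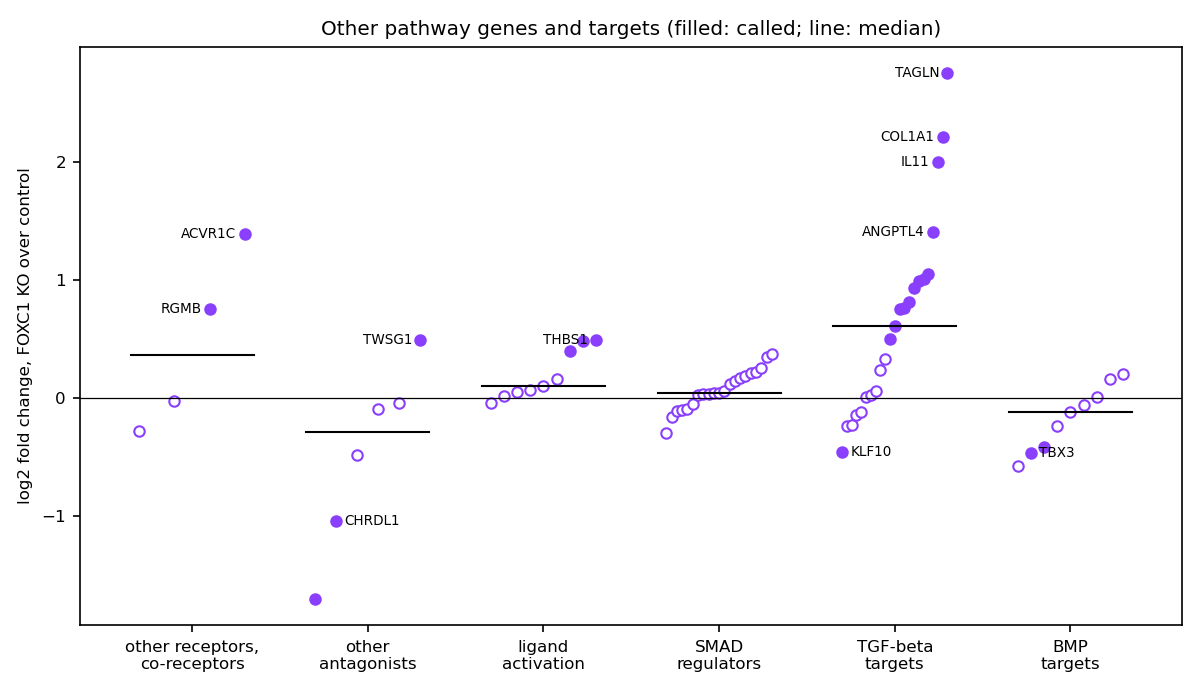
Log2 fold changes (FOXC1 KO over control, y axis) of the tested genes in each other list, with filled points for called genes and a line for the median of each list. The TGF-beta targets have a median of 0.61, and the BMP targets one of -0.12.

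Other markers moved between the groups. The 14 urothelial markers summed to 3185 to 4007 CPM in the control and 2492 to 2769 CPM in the KO libraries, with KRT5, KRT20, UPK1A, UPK1B, UPK2, UPK3A and TP63 under 1 CPM in every library. The 7 fibroblast markers summed to 514 to 598 CPM against 305 to 309 CPM, although COL1A1 rose. The endothelial markers were low, at 0.590 to 0.902 CPM in sum in the control against 1.55 to 1.90 CPM in the KO libraries. Of them CDH5 alone was called higher (0.0131 to 0.933 CPM). CDH5 had 0, 0 and 1 counts in the control and 18, 18 and 26 in the KO libraries, and passed the filter only through the latter. KDR was not called (log2 fold change -0.14), and VWF and TEK were under the filter. The blood markers summed to 3.32 to 4.24 CPM against 5.24 to 6.17 CPM, with CD14 called higher and CD3E at 0. The part of these markers in the results above was not tested.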

How the data were processed

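RNA from 3 control and 3 FOXC1 KO J82 libraries (KAPA mRNA HyperPrep, paired-end) was sequenced by the authors, who deposited a table of raw counts per gene. The submitters' processing notes name STAR, Subread, featureCounts and hg19, and the gene identifiers are those of GENCODE 19. The versions of these tools, and the strand and multimapping settings, were not given in the sources used here. The table held 0 rows that name no gene and 0 columns of other samples. Columns were matched to the samples by title.

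Counts were filtered with filterByExpr (0.4188 CPM, 10 counts in the median library), normalized by TMM and tested with the robust quasi-likelihood test of edgeR 4.0.16 in R 4.3.3, on all 6 libraries with group as the only term. P-values were adjusted by the Benjamini-Hochberg method over all 15647 tested genes. Standard errors were derived from the F statistic. CPM used TMM-scaled library sizes, and CPM per kb used the Ensembl canonical transcript. Positions are GRCh37 (the build hg19), from GENCODE 44 lifted to it, which matched 55538 gene identifiers (96.05%). The promoters came from RefSeq, GRCh38.p14. No promoter was matched for ACVRL1, BMP1, BMP2, BMP7, GDF6, INHBE, NOG and SKI. The listed symbols GDF2, GDF10 and PECAM1 were not matched in the count table.

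Named were FOXC1, all called pathway genes, a fixed set of core members, and at most 5 called genes by smallest p of each other list. The members, lists and tests were chosen with earlier results of these data known. The scripts were tested on simulated data. Alternatives were DESeq2 1.42.0, other normalization, filters and thresholds, equal depth, a replicate block and leaving out each library. With 3 libraries a group, the smallest two-sided exact permutation p is 0.1. A few genes of the lists are not reported here.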

Additional observations from a re-analysis of the deposited data

How the results depend on the processing

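In edgeR 6 pathway genes were lower and 9 higher. Leaving out 1 library in turn gave 5 to 6 lower and 7 to 10 higher. Testing against the 1.3-fold threshold itself (glmTreat) left 3 lower and 7 higher. Over all 15647 tested genes it left 494 lower and 516 higher, where the main test called 1313 and 1184. The cause of these moves was not tested beyond the stricter threshold that glmTreat sets. With each shared gene counted in both branches, the median log2 fold change was -0.16 for the BMP branch and 0.047 for the TGF-beta and activin branch, and the first so changed sign, since the shared genes had mostly negative values. Leaving out 1 library gave -0.0097 to 0.059 and 0.14 to 0.23. FOXC1 ranged from 0.25 to 0.35. Libraries with the same number did not deviate together (correlations -0.0402, -0.129 and 0.0733), and a replicate block gave 6 lower and 9 higher. Signs reversed only for values near 0: when 1 library was left out, ACVR1B ranged from -0.11 to 0.044 (0.029 in a further fit), ACVR2B from -0.043 to 0.15 (-0.024 and -0.012) and FSTL1 from -0.046 to 0.048 (-0.0010 and -0.0070), and FSTL1 was -0.0016 by library size alone or at equal depth and -0.0067 at a mean count of at least 50. Apart from glmTreat, for which single genes were not compared, LTBP4 alone of the 15 called genes lost significance. It did so under DESeq2 and in 4 of the 6 leave-one-out fits. TGFBR1 and SMURF2 went under the fold threshold without control replicate 1. INHBB, INHBE and LTBP4 were too low to be tested at a mean count of at least 50. SMAD5 gained a call under DESeq2, at equal depth and in 4 leave-one-out fits, NOG at equal depth and in 1 such fit, and BMPR1B in 1. Low counts limit the precision of INHBB, BMPR1B, BMP8B, INHBE, TGFB3 and LTBP4.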

Other observations

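Several of the pathway genes lie close to each other in the genome. TGFBI and SMAD5 are 69.0 kb apart, with log2 fold changes of 0.86 and 0.38. SMAD3 and SMAD6, both called lower, are 281 kb apart, with values of -0.48 and -1.16. TGFB1 and LTBP4 are 672 kb apart (-0.30 and -0.69), and SMAD2 and SMAD7 are 989 kb apart (-0.26 and -0.32). The members of each pair had the same sign in KO, and whether position bears on this was not tested. The further pairs within 1 Mb were BMP8A with BMP8B, ACVR1B with ACVRL1 and BMP7 with PMEPA1, each of which held a gene under the filter.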
